A study of Mus musculus with 9 samples.

Results

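Transcription factors of the trophoblast were examined on expression arrays of mouse embryonic stem cells after knockdown of Phf5a or Paf1. The 10 genes were chosen by symbol, namely Tead4, Cdx2, Elf5, Eomes, Tfap2a, Tfap2c, Gata2, Gata3, Hand1 and Ascl2. All 10 had a probe set of their own among the 22180 genes tested, and where a gene had several, the brightest on average was used. The cells were of the NG4 line, a 129/Sv embryonic stem cell line in which GFP reports Nanog, grown on gelatin-coated plates with LIF, which keeps such cells undifferentiated. pLKO.1 lentiviruses delivered 1 of 3 short hairpin RNAs, namely shControl, which is the control, shPhf5a or shPaf1, with 3 arrays in each group, and all groups went through 72 h of puromycin at 2 μg/mL. Phf5a is a subunit of the SF3b splicing complex, and Paf1 is part of a complex that travels with elongating RNA polymerase II. Each target has 1 hairpin and all samples come from 1 line, so that effects of a hairpin on other genes cannot be told apart from those of its target.

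The trophoblast is the outer lineage of the early embryo, which implants and builds the fetal part of the placenta. Embryonic stem cells descend from the inner cell mass and normally make little trophoblast. In the embryo, the outer cells keep YAP in the nucleus, where it works with Tead4 and switches on Cdx2 and Gata3. Cdx2 and the stem cell factor Pou5f1 (Oct4) oppose each other. Elf5 and Eomes sustain trophoblast stem cells, Tfap2c and Gata2 act in the same network, and Hand1 and Ascl2 direct descendants of these cells, the giant cells and the spongiotrophoblast. Several of these factors work elsewhere as well, Gata2 in blood, Gata3 in lymphocytes and epithelium, Eomes in the primitive streak, Hand1 in mesoderm and heart, and Tfap2a in neural crest and surface ectoderm.

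Promoter sequences are shown because some of the factors could bind the genes of others, and the AP-2 proteins (Tfap2a and Tfap2c), whose mRNAs changed, have a recognition sequence of known form. The windows hold the 250 bases before an annotated transcription start in the RefSeq table of build GRCm38.p6. That table holds 10 windows for 7 of the genes (Cdx2, Elf5, Eomes, Gata2, Gata3, Ascl2 and Tfap2a). Capitals mark matches to any of 10 motifs, read on both strands: the AP-2 site GCCNNNGGC, GATAA, the TEAD site GGAATG, the ELF core GGAAGT, the E-boxes CATCTG and CAGCTG, the T-box core GGTGTG, the CDX site TTTATNG, the TATA box TATAAA and CCAAT. The CDX site and the TATA box share letters and could overlap. The following are the 3 genes with an AP-2 match, and Ascl2, whose window holds 3 CCAAT matches and 1 T-box match.
Gata3: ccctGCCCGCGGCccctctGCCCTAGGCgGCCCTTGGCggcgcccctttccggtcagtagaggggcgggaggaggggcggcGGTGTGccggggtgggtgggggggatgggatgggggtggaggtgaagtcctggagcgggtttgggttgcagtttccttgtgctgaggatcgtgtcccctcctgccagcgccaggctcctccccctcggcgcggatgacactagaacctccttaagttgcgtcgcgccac
Gata2: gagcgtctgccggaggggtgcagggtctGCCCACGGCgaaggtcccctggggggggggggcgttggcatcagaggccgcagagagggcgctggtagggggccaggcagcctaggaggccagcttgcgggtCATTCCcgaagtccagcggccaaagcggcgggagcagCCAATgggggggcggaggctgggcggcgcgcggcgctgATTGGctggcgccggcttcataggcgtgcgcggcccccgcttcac
Cdx2: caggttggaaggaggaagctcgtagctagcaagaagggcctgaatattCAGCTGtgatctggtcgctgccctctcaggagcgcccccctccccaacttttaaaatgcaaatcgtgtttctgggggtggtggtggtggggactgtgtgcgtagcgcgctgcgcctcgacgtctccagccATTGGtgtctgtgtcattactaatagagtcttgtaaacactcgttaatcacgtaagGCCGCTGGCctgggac
Ascl2: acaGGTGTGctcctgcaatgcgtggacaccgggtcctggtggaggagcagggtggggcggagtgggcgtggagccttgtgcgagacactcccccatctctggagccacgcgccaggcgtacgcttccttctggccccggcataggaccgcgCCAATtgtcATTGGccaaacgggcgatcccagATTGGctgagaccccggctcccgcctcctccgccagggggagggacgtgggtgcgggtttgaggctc

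These windows lie at chr2:9878601-9878850 on the minus strand (Gata3), chr6:88198414-88198663 on the plus strand (Gata2, the second of 2 starts), chr5:147307250-147307499 on the minus strand (Cdx2) and chr7:142969265-142969514 on the minus strand (Ascl2), and each reads toward its gene. The Gata3 window holds 3 AP-2 matches, which begin 246, 231 and 221 bases before the start. The Gata2 window holds 1 AP-2 match, 1 TEAD match and 2 CCAAT matches, and the window of the other Gata2 start holds none of the 10 motifs. In Cdx2 the AP-2 match begins 16 bases before the start. Of all 32851 windows of the table, 13.7% hold an AP-2 match, 12.6% a TEAD match, 16.3% a T-box match and 33.8% a CCAAT match. These shares were not matched for base content, and the fixed letters of the AP-2 site are all G or C. G and C make up 70% of the Gata3 window, 74% of the Gata2 window shown and 55.2% of the Cdx2 window. The median over all windows is 52.4%. The CAGCTG E-box stands in Cdx2 and Elf5 and in 13.0% of all windows, and GATAA stands in Elf5 and in 22.6%. Elf5 also holds 1 TEAD match before its first start and 1 T-box match before its second. The Gata3 window holds 1 T-box match, the Cdx2 window 1 CCAAT match and the Eomes window 2 CCAAT matches. The ELF core, the CATCTG E-box, the CDX site and the TATA box, which 19.7%, 14.4%, 9.81% and 12.4% of all windows hold, have no match in any of the 10 windows. Both Tfap2a windows hold none of the 10 motifs. These matches describe letters only, and binding was not measured.

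Signal of the core pluripotency factors was checked first. In all 3 groups, all 7 core pluripotency factors measured (Pou5f1, Sox2, Nanog, Klf4, Tbx3, Prdm14 and Zfp42) lay above the 95th percentile of 1105 olfactory receptor genes, which stem cells are not known to use and which serve here as a guide to dim signal. In shControl all 13 primitive endoderm markers and all 28 trophoblast effector genes measured lay above that percentile too. This check therefore shows signal and does not tell cell types apart. Array medians lay between 6.22 and 6.31 log2 units. Replicates 1, 2 and 3 of shPhf5a kept 34.4%, 55.9% and 39.6% of the control level of Phf5a, and those of shPaf1 kept 37.7%, 38.9% and 38.0% of that of Paf1. Phf5a was also at 64.3%, 62.0% and 76.2% in shPaf1, and Paf1 at 76.5%, 95.7% and 81.8% in shPhf5a, so that neither knockdown left the other target at the control level. The second shPhf5a array, which kept the most Phf5a, also lay farthest from its replicates over all genes (root mean square 0.19 log2 units, against 0.17 and 0.14 for replicates 1 and 3 and 0.10 to 0.11 in the other groups), and counts over gene lists that it moved by over 1.5 times, and calls of the 10 factors that it changed, are also given without it.

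Most of the trophoblast factors were higher in shPhf5a than in shControl. In limma's fit over all genes, 9 of the 10 were called higher (Benjamini-Hochberg adjusted p under 0.05) and 0 lower, where 16.7% of all genes were called higher and 20.7% lower, and 0 were lower at an unadjusted p under 0.05 as well. In either direction 37.4% of all genes were called. Of the 9, 5 rose by at least 2-fold, as did 2.07% of all genes. In 7 of the 10 genes every shPhf5a array lay above every control array, which held for 19.9% of all genes, and in 0 every one lay below, which held for 25.9%. The median difference of the 10 was 0.99 log2 units, beside -0.03 for all genes. Without shPhf5a replicate 2 the count called higher was 6, since Cdx2, Eomes and Tead4 no longer passed.

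After knockdown of Paf1, 5 of the 10 were called higher and 1 lower, where 18.0% of all genes were called higher, 17.8% lower and 35.8% in either direction. Those higher were Gata2, Hand1, Tfap2a, Gata3 and Eomes, and Tfap2c was lower. Of the 5, 3 rose by at least 2-fold, as did 1.91% of all genes. Every shPaf1 array lay above the controls in 6 genes and below them in 1, which held for 23.2% and 25.0% of all genes. The median difference was 0.36, beside -0.01 for all genes. Both knockdowns are set against the same 3 control arrays. In bulk RNA, more cells that express a gene and more RNA per cell cannot be told apart.

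**Figure D1:**
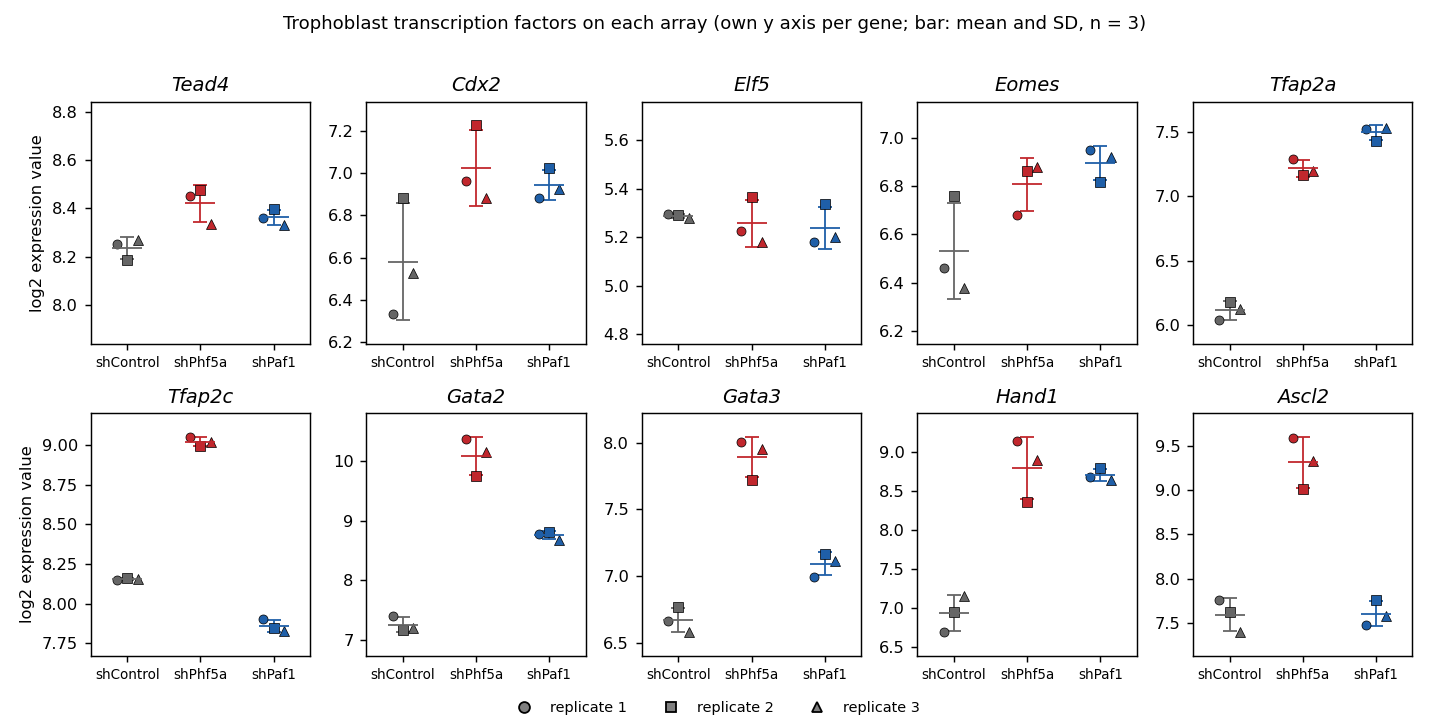
Log2 expression value of each trophoblast transcription factor (1 panel per gene, each with its own y axis) in the shControl, shPhf5a and shPaf1 arrays; symbols are the 3 replicates, bars the mean and SD. Gata2, Gata3, Hand1, Ascl2, Tfap2a and Tfap2c separate shPhf5a from shControl, Tfap2c lies below the control in shPaf1 at 7.83 to 7.90, and Elf5 stays between 5.18 and 5.37 on all arrays.

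Tead4, the DNA-binding partner of YAP that starts the trophectoderm program, changed little. Its control arrays read 8.25, 8.19 and 8.27 log2 units, the shPhf5a arrays 8.45, 8.48 and 8.33, and the shPaf1 arrays 8.36, 8.40 and 8.33. Every knockdown array lay above every control array, but by small steps. Tead4 rose by 0.18 in shPhf5a (1.14-fold, SE 0.05, 3 arrays in each group here and throughout, limma adjusted p = 0.0191), and in shPaf1 the difference of 0.13 did not pass (adjusted p = 0.0936). The call in shPhf5a was lost without shControl replicate 2 (adjusted p = 0.0718), shPhf5a replicate 1 (0.0537) or shPhf5a replicate 2 (0.0507), and when each array was centred on its median (0.0602). Tead4 did pass in shPaf1 when arrays were weighted (adjusted p = 0.0456) or the shPhf5a arrays left out of the fit (0.05).

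Cdx2, the homeobox gene that represses Pou5f1 in the trophectoderm, was among the smaller and least settled changes. Its values were 6.33, 6.88 and 6.53 in the control arrays, 6.96, 7.23 and 6.88 in shPhf5a and 6.88, 7.02 and 6.93 in shPaf1. The second control array held the same value as the lowest array of each knockdown, so that the groups touched. Cdx2 rose by 0.44 in shPhf5a (SE 0.13, 1.36-fold, limma adjusted p = 0.025), and the difference of 0.36 in shPaf1 (SE 0.13) did not pass (adjusted p = 0.0608). The call in shPhf5a was lost without shControl replicate 1 (adjusted p = 0.0935), shControl replicate 3 (0.0779) or shPhf5a replicate 2 (0.0741), with array weights (0.0526) and when the other group was left out of the fit (0.065). In shPaf1 Cdx2 passed without shControl replicate 2 (0.51, adjusted p = 0.00707), without shPhf5a replicate 2 (0.0386), with array weights (0.0322) and among genes above the median level (0.0306).

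Eomes, a T-box factor of trophoblast stem cells and of the primitive streak, rose by 0.36 in shPaf1 (SE 0.10, 1.29-fold, limma adjusted p = 0.0147) and by 0.28 in shPhf5a (SE 0.10, 1.21-fold, adjusted p = 0.0496). The control arrays read 6.46, 6.76 and 6.38, the shPhf5a arrays 6.68, 6.86 and 6.88, and the shPaf1 arrays 6.95, 6.82 and 6.92. The second control array lay above the lowest shPhf5a array and below all shPaf1 arrays. The call in shPhf5a stood at the threshold and was lost in 13 of 18 alternatives, 7 of which each left out 1 array. Those were shControl replicate 1 (adjusted p = 0.152) or 3 (0.173), shPhf5a replicate 2 (0.112) or 3 (0.151), and shPaf1 replicate 1 (0.0678), 2 (0.0642) or 3 (0.071). The call in shPaf1 was lost without shControl replicate 1 (0.0587), shControl replicate 3 (0.059) or shPaf1 replicate 1 (0.0552).

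Elf5, an ETS factor that marks committed trophoblast and is kept silent by DNA methylation in embryonic stem cells, did not pass in either knockdown. Its 9 arrays lay between 5.18 and 5.37 log2 units, and its differences were -0.03 in shPhf5a (95% interval -0.17 to 0.11) and -0.05 in shPaf1 (-0.19 to 0.09). Of the 10 genes it was the one whose mean lay below the 95th percentile of the olfactory receptor genes, in all 3 groups. Probe sets differ in brightness for the same amount of RNA, so that this is a guide only, and a change of so dim a gene may be compressed.

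The AP-2 genes parted in shPaf1. Tfap2a, an AP-2 factor of trophoblast, neural crest and surface ectoderm, read 6.03, 6.18 and 6.12 in the control arrays, 7.29, 7.16 and 7.20 in shPhf5a and 7.53, 7.43 and 7.53 in shPaf1. The 3 groups did not overlap, and both knockdowns were high. Tfap2a rose by 1.11 in shPhf5a (SE 0.06, 2.15-fold, limma adjusted p = 2.5e-06) and by 1.39 in shPaf1 (SE 0.06, 2.61-fold, adjusted p = 4.59e-07).

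Tfap2c, the AP-2 factor that maintains trophoblast stem cells and is also active in germ cells, had tight values of 8.15, 8.16 and 8.15 in the controls. It read 9.05, 8.99 and 9.02 in shPhf5a and 7.90, 7.84 and 7.83 in shPaf1. The knockdowns thus lay on opposite sides of the control with no overlap. Tfap2c rose by 0.87 in shPhf5a (SE 0.04, 1.82-fold, adjusted p = 2.26e-06) and fell by 0.30 on the log2 scale in shPaf1 (SE 0.04, 1.23-fold, adjusted p = 0.000412).

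Gata2 had the largest rise of the 10 genes in shPhf5a. This zinc-finger factor, which serves in placental and blood progenitors, read 7.40, 7.17 and 7.19 in the controls, 10.37, 9.74 and 10.16 in shPhf5a and 8.78, 8.80 and 8.68 in shPaf1. The 3 groups formed separate steps. Gata2 rose by 2.84 in shPhf5a (SE 0.14, 7.16-fold, limma adjusted p = 1.91e-06), the rank of 4 among all genes ordered from the largest rise, and by 1.5 in shPaf1 (SE 0.14, 2.84-fold, adjusted p = 2.45e-05).

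Gata3, a zinc-finger factor that acts beside Cdx2 in the trophectoderm, followed the same order at a smaller size. It read 6.67, 6.77 and 6.59 in the controls, 8.0, 7.72 and 7.95 in shPhf5a and 7.0, 7.17 and 7.12 in shPaf1, again without overlap. Gata3 rose by 1.22 in shPhf5a (SE 0.08, 2.32-fold, limma adjusted p = 7.9e-06) and by 0.42 in shPaf1 (SE 0.08, 1.34-fold, adjusted p = 0.00294). The array holds another probe set of Gata3 alone, which read 6.53, 6.68 and 6.52 as the means of shControl, shPhf5a and shPaf1 and did not pass (0.15, adjusted p = 0.324, and -0.01, adjusted p = 0.966, over all probe sets). With the mean of both probe sets the rises were 0.68 and 0.20, and both still passed. Which part of the transcript each probe set reads is not given in the sources used here.

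Hand1, the basic helix-loop-helix factor that trophoblast giant cells require, rose in both knockdowns. It read 6.68, 6.95 and 7.15 in the controls, 9.13, 8.36 and 8.89 in shPhf5a and 8.68, 8.79 and 8.64 in shPaf1. All knockdown arrays lay above all controls, and the knockdowns overlapped. The rises were 1.87 in shPhf5a (SE 0.18, 3.65-fold, limma adjusted p = 4.58e-05) and 1.78 in shPaf1 (SE 0.18, 3.42-fold, adjusted p = 4.52e-05).

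Ascl2, an imprinted basic helix-loop-helix gene needed for the spongiotrophoblast, rose in shPhf5a. It read 7.76, 7.62 and 7.39 in the controls, 9.59, 9.01 and 9.33 in shPhf5a and 7.48, 7.76 and 7.58 in shPaf1. The shPhf5a arrays stood apart, and those of shPaf1 lay within the range of the controls. The rise in shPhf5a was 1.72 (SE 0.14, 3.29-fold, limma adjusted p = 2.19e-05). In shPaf1 the difference was 0.01 (SE 0.14, 95% interval -0.31 to 0.34, adjusted p = 0.962), an interval that leaves room for small changes in either direction.

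**Figure D2:**
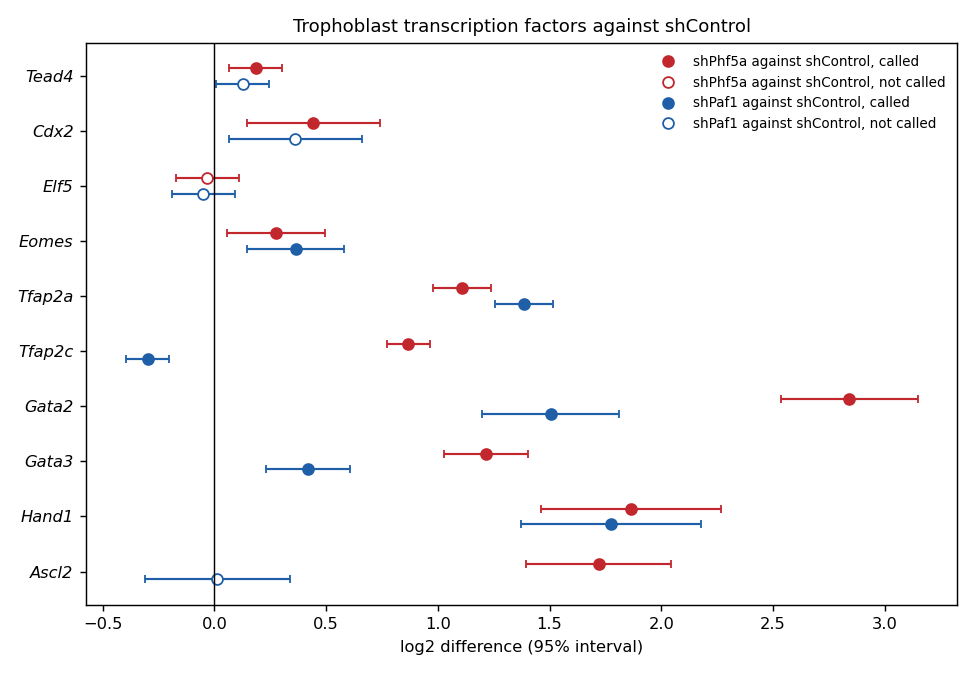
Log2 difference from shControl (x axis) of each trophoblast transcription factor (y axis) in shPhf5a and shPaf1, with 95% intervals from limma; filled points passed an adjusted p of 0.05 and open points did not. Gata2 lies farthest to the right at 2.84 in shPhf5a and 1.5 in shPaf1, and Tfap2c lies on both sides of 0, at 0.87 and -0.30.

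The arrays of shPhf5a kept 1 order for the 6 factors with the larger rises. Gata2, Gata3, Hand1, Ascl2, Tfap2a and Tfap2c were highest in replicate 1, where Phf5a was lowest, and lowest in replicate 2, where Phf5a was highest. Cdx2, Tead4 and Elf5 were highest in replicate 2, and Eomes in replicate 3. The order is not particular to these factors, since Krt8, Krt18, Plet1, Dsp, Msx2, Gata6 and Snai2 took it too. Fgfr2, lowest in replicate 3, and Tek, highest there, did not. The share of all genes with this order was not counted. Relative to the control mean, Hand1 was at 461%, 269% and 390% in replicates 1, 2 and 3, and Tfap2c at 186%, 179% and 182%. The spread was thus wide for Hand1, with an SD of 0.40 log2 units, and narrow for Tfap2c, with an SD of 0.03. What part the remaining Phf5a has in this order was not tested. All 6 factors with the larger rises still passed without replicate 2, where Gata2 was at 3.01 and Hand1 at 2.08.

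The direct comparison of the knockdowns asks which of these genes differed between shPhf5a and shPaf1. Ascl2, Gata2, Tfap2c and Gata3 were higher in shPhf5a and Tfap2a was lower, and the other 5 did not pass. Called higher were thus 4 of 10 and called lower 1 of 10, where 12.7% of all genes were called higher, 16.3% lower and 29.0% in either direction. By at least 2-fold, 3 were higher and 0 lower, as were 0.717% and 0.897% of all genes. Ascl2 differed by 1.71 (SE 0.14, 3.26-fold, limma adjusted p = 2.96e-05), Gata2 by 1.34 (SE 0.14, 2.52-fold, adjusted p = 8.94e-05), Tfap2c by 1.17 (SE 0.04, 2.24-fold, adjusted p = 5.82e-07) and Gata3 by 0.80 (SE 0.08, 1.74-fold, adjusted p = 0.000101). Tfap2a was lower in shPhf5a, at -0.28 (SE 0.06, 1.21-fold, adjusted p = 0.00506). These 5 calls held in all 18 alternatives, although the difference in Gata3 was 0.48 with the mean of both probe sets.

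Hand1 differed by 0.09 between the knockdowns (95% interval -0.31 to 0.49, limma adjusted p = 0.787), which does not show that the responses were equal. Intervals were narrower for Tead4 (-0.06 to 0.18), Elf5 (-0.12 to 0.16), Eomes (-0.31 to 0.13) and Cdx2 (-0.22 to 0.38). Among the called genes the groups took a different order by gene. Gata2 and Gata3 were highest in shPhf5a, next in shPaf1 and lowest in shControl. Tfap2a was highest in shPaf1, and Tfap2c and Ascl2 were high in shPhf5a alone.

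Paralogs from the same gene families were read beside the 10 factors. Of 21 measured paralogs 6 were called higher and 5 lower in shPhf5a, and 6 and 4 in shPaf1, where 16.7% and 20.7% of all genes, and 18.0% and 17.8%, were called. Their median differences were -0.01 in both. Without shPhf5a replicate 2 the counts in shPhf5a were 7 and 3. Among GATA genes, Gata6, a factor of the primitive endoderm, rose beside Gata2 and Gata3, by 1.78 (SE 0.20, limma adjusted p = 0.000109) in shPhf5a and 1.03 (SE 0.20, adjusted p = 0.00263) in shPaf1. The blood factor Gata1 fell by 0.28 and 0.27 (SE 0.06 for both). Gata4 rose by 0.68 (SE 0.10) in shPaf1 and was at 0.20 in shPhf5a without passing, and Gata5 did not pass. The paralogs Tfap2b, Tfap2d and Tfap2e did not pass in any comparison, with differences from -0.08 to 0.08.

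Tead4 changed least of its family in shPhf5a. Tead1 rose by 0.81 (SE 0.07) in shPhf5a and by 0.70 (SE 0.07) in shPaf1, and Tead3 by 0.43 and 0.94 (SE 0.08 for both). Tead2, the member that is strong in early embryonic cells, fell by 0.79 in shPhf5a (SE 0.13) and was at 0.21 in shPaf1 without passing, and the difference between the knockdowns passed (-1.0, SE 0.13, limma adjusted p = 0.000429). Elf3, an epithelial ETS factor, took the direction of Tfap2c, at 0.59 (SE 0.07) in shPhf5a and -0.30 (SE 0.07) in shPaf1. The direct difference in Elf3 was 0.88 (adjusted p = 2.02e-05). Elf1 rose in both (0.20 and 0.52), Elf2 rose by 0.17 in shPhf5a and fell by 0.22 in shPaf1, and Elf4 rose by 0.34 in shPaf1 and was at 0.00 in shPhf5a. The caudal genes Cdx1 and Cdx4 fell in shPhf5a, by 0.31 and 0.28, where Cdx2 was called higher. Of the T-box genes nearest to Eomes, Tbx21 fell by 0.26 in shPhf5a and was at -0.04 in shPaf1 without passing, and Tbr1 did not pass. Ascl4 fell by 0.37 in shPaf1 and was at -0.08 in shPhf5a without passing, and Ascl3 and Hand2 did not pass.

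**Figure D3:**
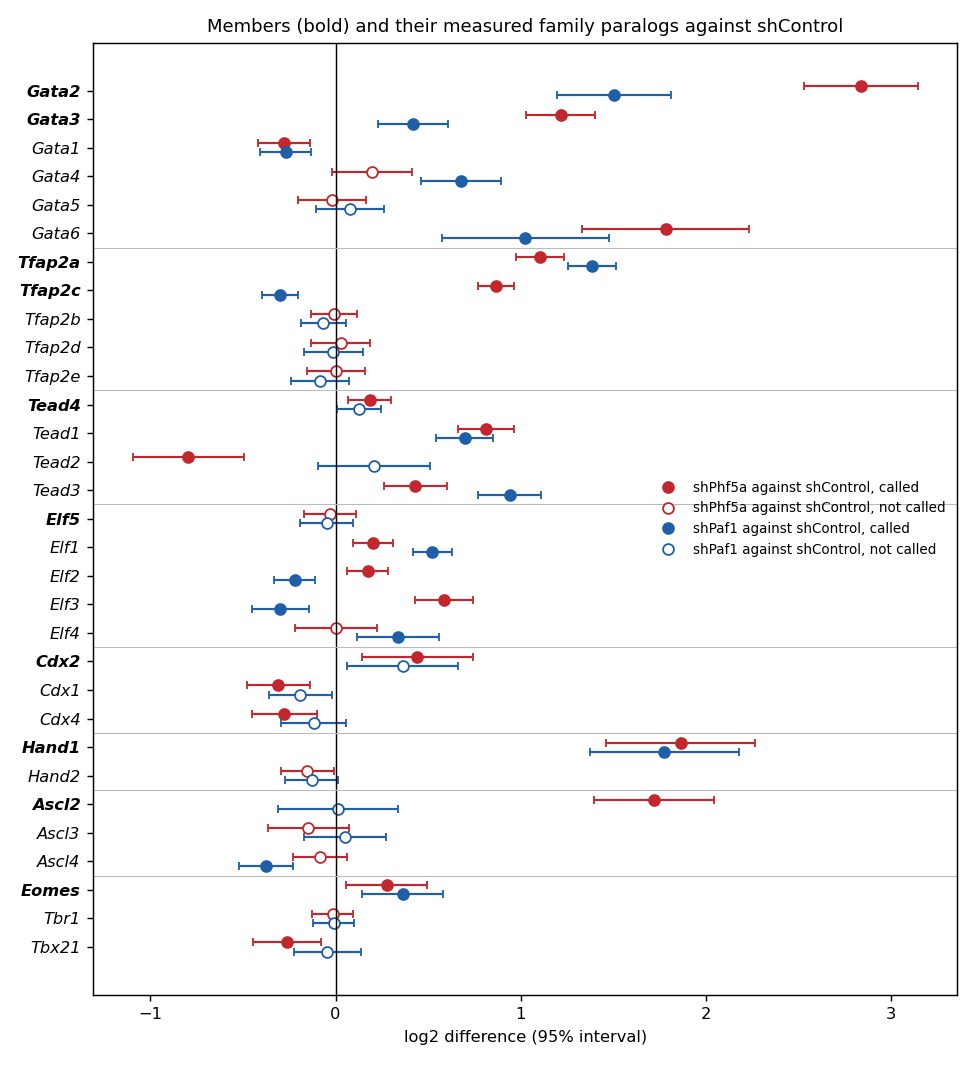
Log2 difference from shControl (x axis, with 95% limma intervals) of the trophoblast transcription factors (bold) and of their measured family paralogs (y axis, families set apart by lines); filled points passed an adjusted p of 0.05. Gata6 lies beside Gata2 and Gata3 at 1.78 in shPhf5a, Tead2 lies at -0.79, and Hand2, Ascl3 and the other AP-2 genes lie near 0.

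Genes upstream of the trophoblast factors were more often higher than lower. Of 13 measured Hippo pathway genes, which control the access of YAP to Tead4, 9 rose and 1 fell in each knockdown, and 9 rose and 2 fell in shPhf5a without its replicate 2. In this and the following lists, 16.7% of all genes were called higher and 20.7% lower in shPhf5a, and 18.0% and 17.8% in shPaf1. Yap1 itself did not pass (0.05 and 0.00). Lats2, a kinase that restrains YAP, rose by 1.10 (SE 0.11) in shPhf5a and 1.23 (SE 0.11) in shPaf1. The junction proteins that bind YAP rose too, Amotl1 by 1.12 and 0.78, Amotl2 by 0.81 and 0.70, and Amot by 0.56 and 1.93, the last with a direct difference of -1.38 (SE 0.09, limma adjusted p = 5.91e-06). Vgll4, a competitor of YAP on TEAD proteins, rose by 0.74 and 0.53, and Nf2, an upstream activator of the pathway, fell by 0.32 and 0.50.

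Of 13 measured genes of the FGF, BMP, Nodal and Notch inputs, 9 rose and 2 fell in shPhf5a, and 6 rose and 2 fell in shPaf1. Fgfr2, the receptor through which FGF4 sustains trophoblast stem cells, rose by 1.31 (SE 0.05) in shPhf5a and 0.51 (SE 0.05) in shPaf1, a difference that passed (0.80, limma adjusted p = 7.79e-06). Its ligand Fgf4 fell, by 0.24 and 0.71. Fgfr1 rose by 0.76 and 0.77. Furin, a protease that activates Nodal and BMP4, rose by 0.99 and 1.76, and Notch1 by 0.76 and 1.06.

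Of 20 other regulators of trophoblast stem cells, 7 rose and 3 fell in shPhf5a, and 6 rose and 1 fell in shPaf1, where the shares of all genes were 16.7% and 20.7%, and 18.0% and 17.8%. Their medians were 0.09 and 0.06. Msx2 and Dlx3, homeobox genes active in the placenta, rose by 1.92 (SE 0.12) and 1.25 (SE 0.13) in shPhf5a. In shPaf1 Msx2 rose by 0.57 and Dlx3 was at 0.31 without passing (adjusted p = 0.0895). Id2 rose by 1.00 and 0.34, and Bhlhe40 by 0.39 and 1.46. Esrrb, shared by trophoblast and embryonic stem cells, fell by 0.44 and 0.70, and Ets2 fell by 0.51 in shPhf5a. Arid3a rose by 0.32 and 0.61.

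Effector genes of the trophectoderm and trophoblast were mostly higher in both knockdowns. Of 28 measured, 21 rose and 2 fell in each, with medians of 0.45 and 0.71. Without shPhf5a replicate 2 the counts in shPhf5a were 20 and 2. The simple epithelial keratins Krt18 and Krt8, the desmosomal Dsp and the surface protein gene Plet1 rose by 2.49, 1.98, 1.94 and 1.93 in shPhf5a (SE 0.12 to 0.21). In shPaf1 they rose by 3.21, 2.68, 2.09 and 2.66, and Mmp9, a matrix protease of invading trophoblast, rose by 2.65 (SE 0.12).

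The direct comparison of these effectors did not run as that of the transcription factors. Of the 28, 6 were higher in shPhf5a and 13 lower (6 and 11 without shPhf5a replicate 2). In this comparison 12.7% of all genes were called higher in shPhf5a and 16.3% lower. The transcription factors had 4 higher and 1 lower. Krt18, Krt8 and Plet1 were lower in shPhf5a than in shPaf1, at -0.71, -0.70 and -0.73 (limma adjusted p = 0.0168, 0.0353 and 0.00592), and Mmp9 at -2.26 (SE 0.12, adjusted p = 2.51e-06). The median direct difference was -0.19 for the effectors and 0.09 for the transcription factors, beside -0.02 for all genes. No test compared these lists.

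**Figure D4:**
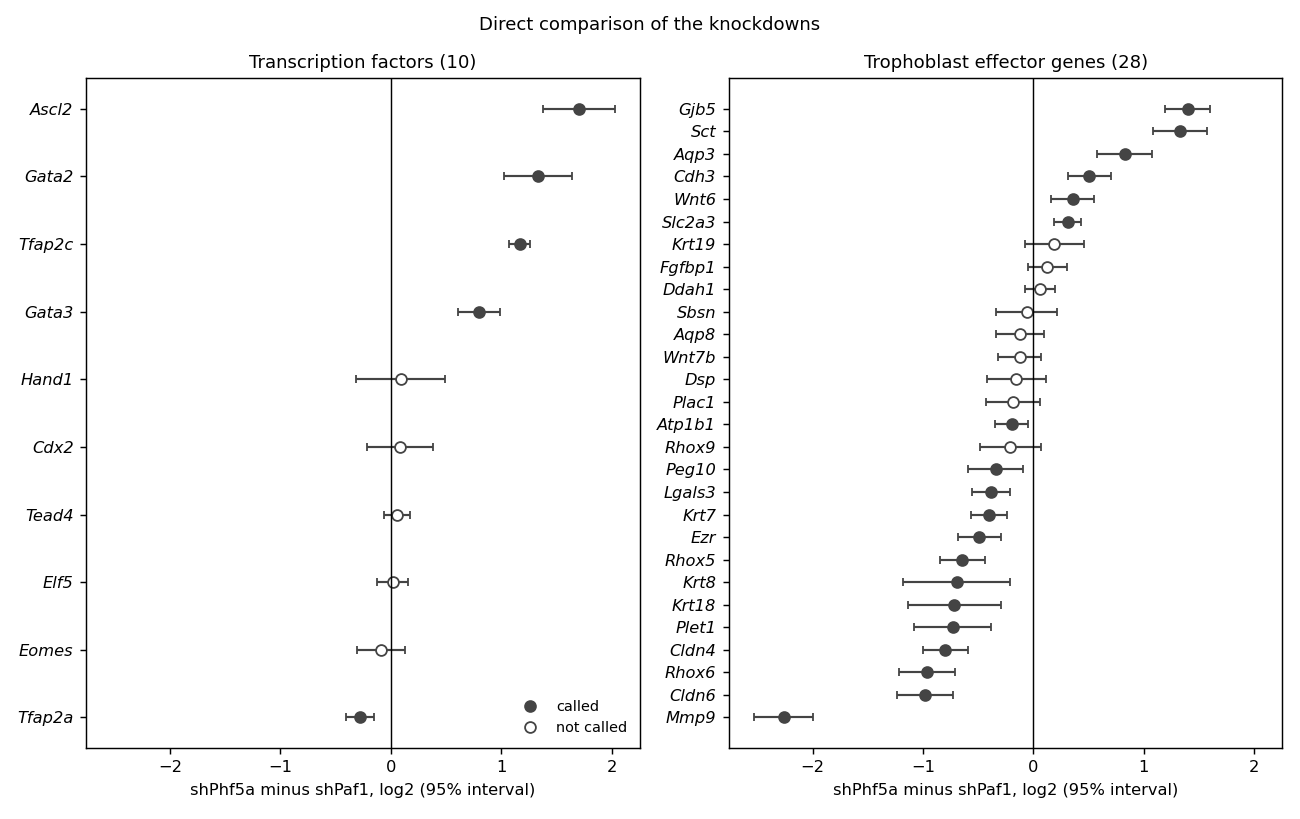
Log2 difference of shPhf5a minus shPaf1 (x axis, with 95% limma intervals) for the 10 trophoblast transcription factors (left) and 28 measured trophoblast effector genes (right), sorted by size; filled points passed an adjusted p of 0.05. Ascl2, Gata2, Tfap2c and Gata3 lie right of 0, whereas 13 called effectors, among them Mmp9 at -2.26, lie left of it and 6 lie right.

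Genes of the mature placenta were mostly not called, and many were dim. Of 17 measured, 1 rose and 3 fell in shPhf5a, and 3 rose and 3 fell in shPaf1, with medians of -0.04 and -0.03. In the controls 14 of the 17 lay below the median of all genes, and 7 lay above the 95th percentile of the olfactory receptor genes. In each knockdown 6 lay above that percentile, and changes of the others may be compressed. The spongiotrophoblast marker Tpbpa was at 4.97 log2 units in the controls, with differences of -0.09 and -0.03 that did not pass. Syna, which encodes a protein that fuses trophoblast cells, rose by 0.58 and 1.5 (SE 0.05 for both). The imprinted Phlda2 fell by 0.87 and 1.18, and the steroid enzyme gene Cyp11a1 by 1.60 and 0.98.

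Markers of other cell types that use these factors were measured beside them, and their part in the rises was not tested. Their counts stand beside 16.7% of all genes called higher and 20.7% lower in shPhf5a, and 18.0% and 17.8% in shPaf1. The level of each list is its mean over genes. For 11 mesoderm and primitive streak markers it lay at 6.46 to 6.55 log2 units in shControl, 6.52 to 6.63 in shPhf5a and 6.79 to 6.83 in shPaf1, with 3 higher and 2 lower in shPhf5a and 5 and 1 in shPaf1 (3 and 1, and 5 and 2, without shPhf5a replicate 2). Their median differences were 0.03 and 0.01. Mixl1, Mesp1 and Tbx6, which define the streak and early mesoderm, did not pass (T had no probe set of its own), whereas Snai1 rose by 1.64 and 1.16. Lefty2, an inhibitor of Nodal, fell by 1.41 in shPhf5a (SE 0.19) and rose by 0.73 in shPaf1 (SE 0.19). Pdgfra rose by 0.58 and 0.96 and Foxf1 by 0.45 and 0.82. For 13 blood and endothelial markers the mean lay at 6.29 to 6.34 in shControl, 6.42 to 6.50 in shPhf5a and 6.48 to 6.50 in shPaf1, with 4 higher and 1 lower, and 3 and 1 (4 and 2 in shPhf5a without its replicate 2). Their median differences were -0.04 and -0.01. Tal1 and Spi1 did not pass. Cdh5 rose by 0.67 and 0.53 and Itga2b by 0.45 and 0.30 in shPhf5a and shPaf1. Gata1 fell in both, as given above. Tek rose by 1.09 in shPhf5a and Runx1 by 1.42 in shPaf1. For 9 surface ectoderm and neural crest markers it lay at 6.47 to 6.53, 6.63 to 6.74 and 6.71 to 6.82, with 3 higher and 1 lower, and 3 and 0 (4 and 1 in shPaf1 without shPhf5a replicate 2). Their median differences were 0.05 and 0.18. Sox10 and Trp63 did not pass, and Snai2 rose by 1.5 and 1.14. Ets1 rose by 0.30 and 0.70, Dlx5 by 0.60 in shPhf5a and Krt14 by 0.22 in shPaf1. Foxd3 fell by 0.57 in shPhf5a.

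The remaining marker lists are those of primitive endoderm, fibroblasts and pluripotent cells. For 13 primitive endoderm markers the mean lay at 7.07 to 7.16 in shControl, 7.38 to 7.73 in shPhf5a and 7.53 to 7.57 in shPaf1, with 7 higher and 1 lower, and 7 and 0. Their median differences were 0.35 and 0.40, beside 0.99 and 0.36 for the trophoblast transcription factors. Gata6 and Pdgfra rose in both knockdowns, as given above, and Dab2 rose by 1.19 and 0.40. Lamb1, Col4a1 and Col4a2 rose by 0.60, 0.44 and 0.41 in shPhf5a. The means of shControl and shPaf1 were 8.53 and 9.20 for Lamb1, 6.88 and 7.94 for Col4a1, and 6.12 and 7.19 for Col4a2. Sox17 and Foxa2 did not pass. For 12 fibroblast markers the mean of the list lay at 6.39 to 6.43, 6.31 to 6.40 and 6.85 to 6.92, with 1 higher and 2 lower in shPhf5a and 5 and 0 in shPaf1. Their median differences were -0.03 and 0.14. Acta2 fell by 0.80 in shPhf5a and rose by 1.99 in shPaf1. Mmp2 rose by 1.05 in shPhf5a, where Tagln fell by 0.62. The means of shControl and shPaf1 were 8.24 and 9.23 for Mmp2, 7.70 and 8.93 for Tagln, and 5.30 and 5.87 for Dcn. Neither Col1a2 nor Col3a1 passed in a comparison with the controls. Of 7 core pluripotency factors 1 was higher (Tbx3, by 0.67) and 5 lower in shPhf5a, and 0 higher and 6 lower in shPaf1 (0 higher at an unadjusted p under 0.05). Pou5f1 stood at 55.2%, 79.9% and 65.8% of its control level in replicates 1, 2 and 3 of shPhf5a, the reverse of the array order of Gata2 and Hand1, and at 79.9%, 78.1% and 80.7% in shPaf1. Gata1, Gata4, Gata6, Sox2 and Pdgfra each stand in more than 1 of the lists.

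**Figure D5:**
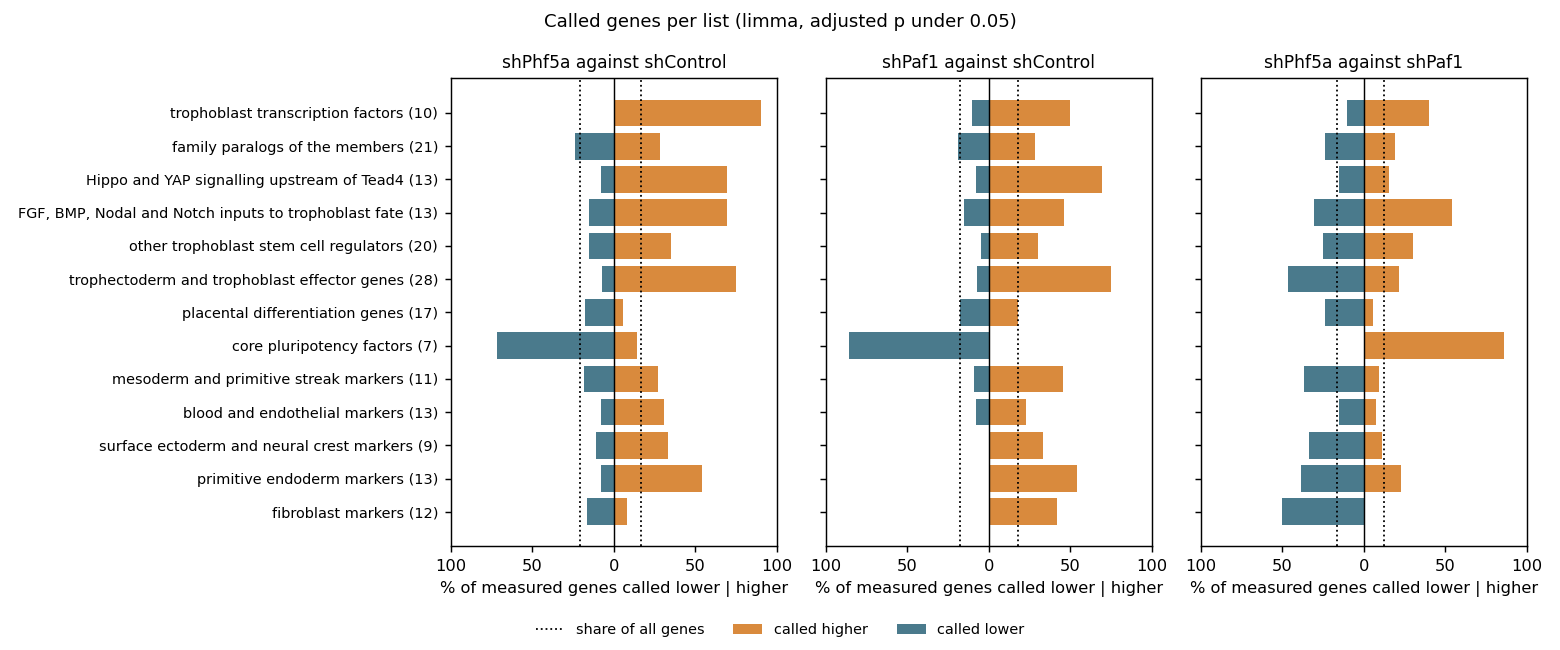
Share of the measured genes of each list (y axis, number measured in brackets) that limma called higher (right of 0) or lower (left of 0), in percent, in the 3 comparisons; dotted lines give the shares of all genes. Trophoblast transcription factors reach 9 of 10 higher in shPhf5a and 5 of 10 in shPaf1, effector genes reach 21 of 28 in both, and placental differentiation genes reach 1 of 17 and 3 of 17.

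Chromosomal neighbours were read for each factor, taking the nearest tested gene on either side in RefSeq's order. Of these 20 genes, 9 were higher and 2 lower in shPhf5a, and 7 higher and 0 lower in shPaf1, where 16.7% and 20.7%, and 18.0% and 17.8%, of all genes were called. Bmp7, which encodes a BMP ligand and lies next to Tfap2c, rose by 1.09 (SE 0.07, limma adjusted p = 7.44e-06) in shPhf5a and 0.35 (SE 0.07, adjusted p = 0.00389) in shPaf1, where Tfap2c fell. Both neighbours of Ascl2 rose in shPhf5a, Th by 0.48 (SE 0.06, adjusted p = 0.000191) and Tspan32 by 0.43 (SE 0.11, adjusted p = 0.0141), and were at 0.05 and -0.07 in shPaf1 without passing. The locus 4930412O13Rik beside Gata3 rose by 0.78 (SE 0.07) and 0.24 (SE 0.07). Next to Gata2, Rpn1 was at -0.02 without passing and Eefsec fell by 0.17 in shPhf5a, and next to Tfap2a, Ofcc1 and Gcnt2 did not pass.

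The genes whose pattern was most like each factor were found by the root mean square difference over the 9 arrays, each gene taken relative to its own control mean. Nearest to Gata2 were the paraspeckle RNA Neat1 (0.19 log2 units) and Zfp36l3, a placental RNA-binding protein gene (0.31). Tbc1d12 (0.17) and the netrin receptor gene Unc5b (0.20) were nearest to Hand1. Ascl2 was matched by the gluconeogenic Fbp1 (0.14) and by Ephx1 (0.16), an epoxide hydrolase gene. Rbm47, an RNA-binding protein gene, and the ammonium channel gene Rhbg were nearest to Tfap2c, at 0.06 and 0.08. Rgs12 and Glrx were nearest to Gata3 (0.07 and 0.08), and Atf7 and Ptpn13 to Tfap2a (0.08 and 0.11). For the factors with small changes, the nearest were Lor and Ror2 to Cdx2 (0.11 and 0.12), Snx7 and Mast3 to Eomes (0.07 and 0.09), and Cxxc5 and Pigo to Tead4 (0.03 and 0.04). All these patterns share the same 3 control arrays.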

How the data were processed

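Labelled cDNA was made from 125 ng of total RNA, per the labels' protocols, and hybridised to Affymetrix whole-transcript arrays. The authors deposited 1 log2 expression value per probe set and array. How the values were background-corrected and normalized, with which software and to which log base, is not given in the sources used here. Base 2 was assumed because values ran from 4.35 to 13.7. With another base, fold changes would differ. Scanner files and scan dates were not used, so that no batch was tested. The labels do not say that replicates were separate cultures, and p-values therefore reflect only differences among these arrays, which may be technical, and the number of arrays limits the precision.

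GEO's platform annotation gave a single symbol to 23521 of 33793 probe sets and several symbols to 1814, and 8458 did not appear in it. The brightest single-gene probe set of each of 22180 genes was tested with limma 3.58.1 in R 4.3.3 (lmFit and eBayes, 1 mean per group over all 9 arrays), adjusted over all genes. Alternatives were quantile normalization, centring on array medians, all probe sets, the mean over a gene's probe sets, genes above the median level, limma's trend and robust options, array weights, a fit of only the groups compared, the replicate number as a block, and leaving out each array. The scripts were tested on simulated data. The genes and lists were chosen with earlier results of these data known. Named were all members and their paralogs, and from each other list at most 4 called genes per knockdown with the largest change, and for called members the 2 genes nearest in pattern. Yap1, Nf2, Tpbpa, marker genes that did not pass and chromosomal neighbours (by position) were added after their values were seen. Promoters and gene order come from RefSeq's tables of GRCm38.p6.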

Additional observations from a re-analysis of the deposited data

Results flagged for a closer look

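Tfap2c was singled out because every shPhf5a array lay above and every shPaf1 array below the controls, and the test of the difference itself passed (1.17 log2 units, limma adjusted p = 5.82e-07). In groups of 3 arrays no single array was tested as an outlier.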

How the results depend on the processing

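The counts of called trophoblast factors stayed within 1.5 times under 18 alternatives, 9 of which each left out 1 array. Called higher were 6 to 9 in shPhf5a, 4 to 7 in shPaf1 and 4 in the direct comparison, and called lower 0, 1 and 1. Of the 30 pairs of gene and comparison, 24 kept their side of the threshold in every alternative run, and the exceptions were Cdx2, Eomes and Tead4 against the control. No called value changed sign. Elf5 could not be tested among genes above the median level. Deviations of same-numbered arrays correlated between -0.06 and 0.11, and those of differently numbered arrays between -0.18 and 0.10. With 3 arrays in each group, these values cannot show whether equal numbers mark pairs. With the replicate number as a block, Eomes in shPhf5a was lost (adjusted p = 0.0645) and Cdx2 in shPaf1 passed (0.0101), and no other call of these genes changed. The counts without shPhf5a replicate 2 for the other gene lists were chosen after seeing the data. Dim genes, above all Elf5, limit what these arrays can show.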

Other observations

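Cdx2 held exactly the same value on 3 arrays, 1 of each group, and Ascl2 on 2 arrays, and 37.8% of all genes held the same value on at least 2 arrays. How the deposited values came to be equal was not tested.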
